A study of Mus musculus with 19 samples.

Results

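The data cover 51 genes of the cell cycle and of mitosis in isolated mouse cardiomyocytes (CMCs), out of 20923 protein-coding genes on the autosomes and the X chromosome. The rule for membership was a known function in the cell cycle and used no measured value, although earlier results of these data were known when the list was drawn up. For each of them the percent of the gene span, from the outermost start to the outermost end of its curated RefSeq transcripts, that lay within peaks of 5-hydroxymethylcytosine (5-hmC) was computed in each of 8 samples. This value is called coverage below.

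The peaks came from hMeDIP sequencing, in which an antibody against 5-hmC pulls down DNA fragments that are then sequenced. CMCs had been isolated from C57BL/6J mice at 4 points, with 2 biological replicates each. These were E14.5 embryos, pups 1 to 2 days after birth (neonatal), untreated adults (2 months old), and adults 1 week after transverse aortic constriction (TAC), an operation that narrows the aorta and loads the left ventricle with pressure. The CMC preparations still held a share of other cell types, and how many animals went into a replicate was not given in the sources used here. The smallest p that an exact two-sided permutation test of 2 against 2 samples can give is 0.333, so single genes were tested with limma across all genes.

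5-hmC is made from 5-methylcytosine by the TET enzymes and is found mostly within the bodies of genes. CMCs divide in the embryo, go through a last round of DNA synthesis without cytokinesis after birth, and then stop dividing. D-type cyclins with Cdk4 and Cdk6 start the cycle by releasing E2F factors from the retinoblastoma proteins, E2F factors switch on the genes of DNA replication, and cyclin B with Cdk1 drives mitosis.

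The lists held 104215 to 153637 peaks, with a median width of 501 bp in each list, and the number of reads behind them is not in the lists, so the depth is unknown. TAC replicate 2 stood apart: 63155 of its 107329 peaks overlapped a peak of another list, and the density of peak centres a short distance away from those of another list over the density at them was 1.66 to 4.1 in the 7 pairs that held it and 0.0385 to 0.214 in the other 21 pairs. Coverage of 10 cardiomyocyte markers, averaged over the genes, was 10.01 to 33.4% in the 8 samples and that of 8 fibroblast markers 0.695 to 2.81%, of which Col3a1 and Tcf21 had no peak in any sample. The mean over 6 endothelial markers was 5.44 to 14.2% and over 4 markers of smooth muscle and blood cells 3.47 to 28.6%, so that no defining list of another cell type was at 0 throughout. The part of other cell types in the values below was not tested, and a change in the share of cells that carry 5-hmC at a gene cannot be told apart from a change in the level per cell.

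Of the 51 members, 12 had a peak in all 8 samples, 46 had a peak in at least 2 samples and so entered the test, and 4 had none in any sample. The 4 without a peak were Ccne1 and Ccne2, the E-type cyclins of the entry into S phase, Mcm4, a subunit of the replication helicase, and Bub1, a kinase of the spindle checkpoint. A peak was found in 1 sample only in Ccna2, the A-type cyclin of S phase and mitosis, with a coverage of 6.13% in E14.5 replicate 1. A peak of the median width covers 5.27% of Ccne1 and 18.2% of Cdkn2d but 0.268% of Cdk6, so that coverage of short genes moves in large steps.

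**Figure D1:**
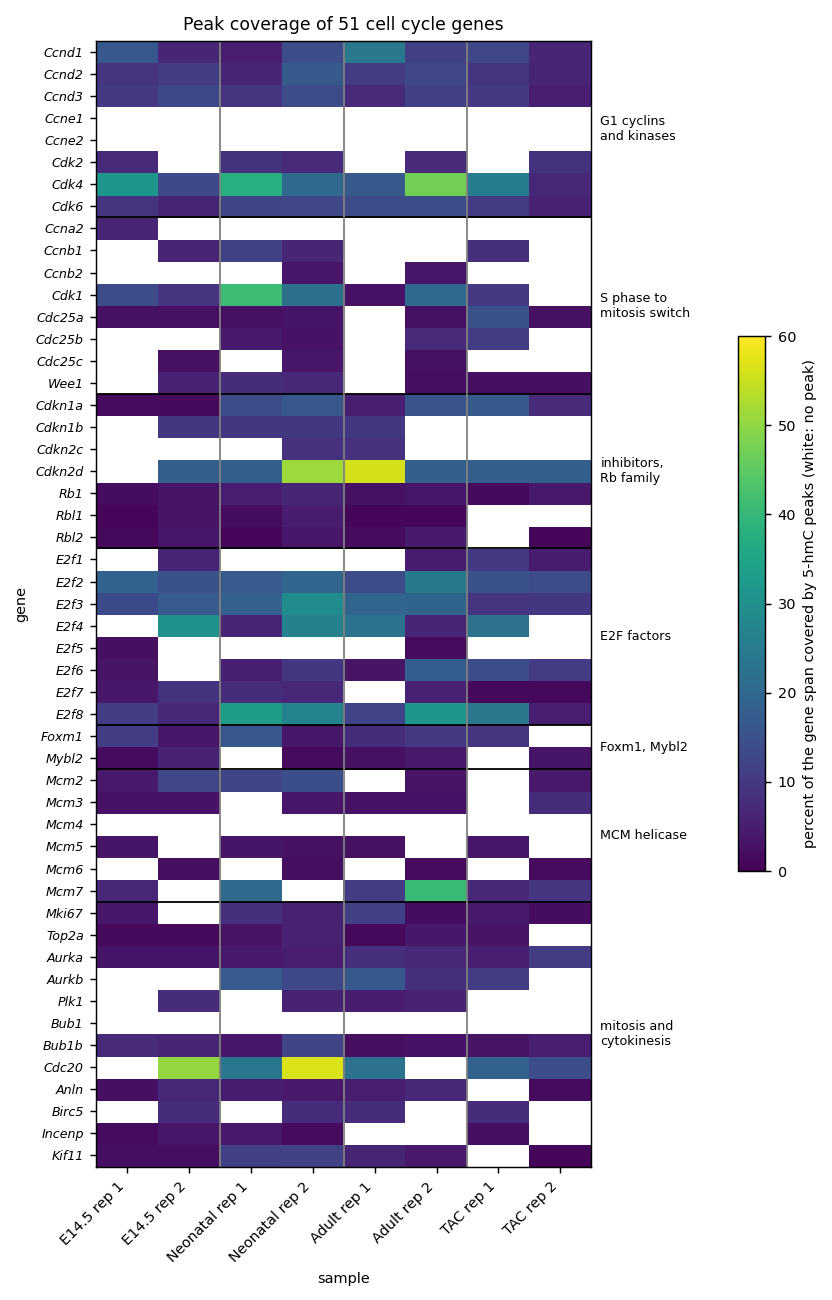
Percent of the gene span covered by 5-hmC peaks (colour) for the 51 genes (rows, by role group) in the 8 samples (columns, 2 replicates per point); white cells have no peak. Cdk4, Cdkn2d and Cdc20 have the highest means over the 8 samples (25.0, 24.8 and 23.2%), while Ccne1, Ccne2, Mcm4 and Bub1 are white throughout.

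The members as a group were covered most at the neonatal point. Their mean coverage was 4.25 and 6.24% at E14.5, 8.22 and 10.03% at the neonatal point, 6.77 and 7.85% in adults, and 6.3 and 3.55% after TAC. The replicates of the neonatal point were above the other 6 samples. The lists held 132610 and 139706 peaks at E14.5, 137172 and 153637 at the neonatal point, and 104215 and 121214 in adults. With equal numbers of peaks drawn from the lists, the members' mean was 3.598% at E14.5, 6.804% at the neonatal point, 6.376% in adults and 4.683% after TAC. The neonatal and adult means were thus close in that setting. It was a single random draw of 104215 peaks per list, and how far its values vary between draws was not tested. The mean over all protein-coding genes was 5.73 and 5.15% at E14.5, 6.54 and 7.81% at the neonatal point, 6.56 and 8.91% in adults, and 6.56 and 3.98% after TAC, and its highest value was in adult replicate 2. Marker lists also differed between the points, and their part in the means of the members was not tested. Mean coverage of the 10 cardiomyocyte markers was 26.7 ± 2.81% at E14.5, 31.8 ± 2.26% at the neonatal point, 14.0 ± 3.56% in adults and 10.4 ± 0.568% after TAC (SD, n = 2), and 9 of the 9 tested were lower in both adult than in both neonatal replicates. From neonatal to adult CMCs the mean of the endothelial markers went from 10.6 to 7.93% and that of the markers of smooth muscle and blood cells from 23.5 to 16.2%.

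Since coverage by peaks depends on the length of a gene, each member was also set beside all other protein-coding genes whose span was within a factor of 1.2 of its own (genes of like length). The ratio of the members' mean to that of genes of like length was 0.705 and 1.13 at E14.5, 1.16 and 1.19 at the neonatal point, 0.939 and 0.797 in adults, and 0.882 and 0.811 after TAC. The neonatal replicates thus had the highest ratios of the 8 samples, with a mean of 1.18 ± 0.0157 (SD, n = 2), against 0.918 ± 0.302 at E14.5, 0.868 ± 0.101 in adult and 0.846 ± 0.05 in TAC CMCs. The E14.5 replicates were on opposite sides of a ratio of 1. No p is given for these means, since they summarise a chosen list.

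**Figure D2:**
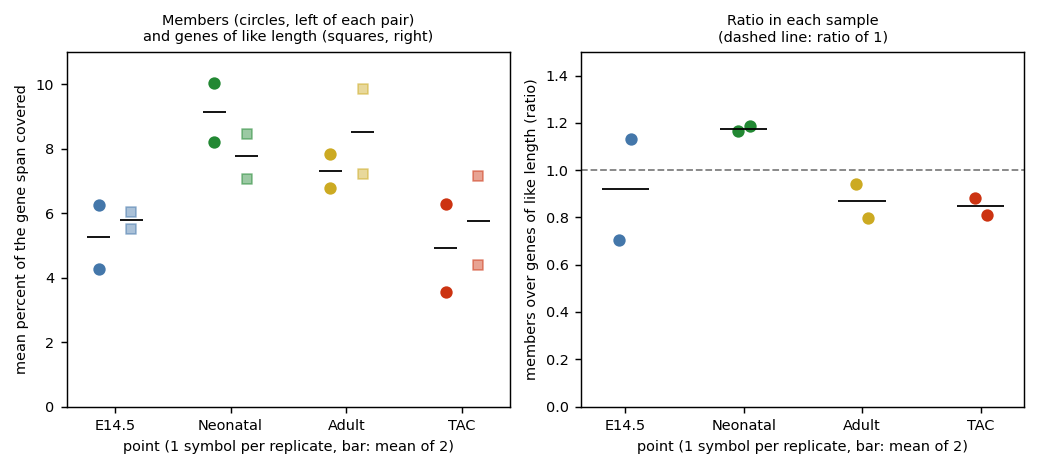
Left, mean percent of the gene span covered in the 51 members (circles) and in genes of like length (squares); right, the ratio of the former to the latter. Each symbol is 1 replicate and bars are means of 2; the neonatal ratios, 1.16 and 1.19, lie above the other 6.

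With limma on log2(coverage in percent + 1) over 16046 genes, no member passed an adjusted p of 0.05 in any of the 4 comparisons. Among all genes 0.523% passed between E14.5 and neonatal, 1.40% between neonatal and adult, 1.75% between E14.5 and adult and 0.860% between adult and TAC CMCs. The lowest adjusted p of a member was 0.387, 0.441, 0.226 and 0.35 in these comparisons in the same order. An unadjusted p under 0.05 was found in 3, 2, 3 and 3 of the 46 members tested, that is in 6.52, 4.35, 6.52 and 6.52% of them, against 6.89, 9.89, 16.7 and 7.02% of all genes. The fit without the TAC samples called 1 of 46 members between E14.5 and adult, Aurkb, a mitotic kinase. Its adjusted p was 0.0313 in limma, where the fit on all 8 samples gave 0.226. Among all genes that fit called 576 of 15446 in this comparison, against 281 of 16046 in the fit on all 8 samples, so the call is not read as a result about the members. The log2 change of Aurkb was 3.679 in each of these fits.

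The comparisons below are therefore given as values and as counts of members whose replicates did not overlap, that is, where both replicates of the later point were above, or both below, both replicates of the earlier point. Between E14.5 and neonatal CMCs, 14 of the 46 members tested were higher in both neonatal replicates and 0 were lower, that is 30.4 and 0%. Among all genes tested 25.9% were higher and 6.60% lower, and among genes of like length 24.4 and 6.13%. When coverage was divided by the mean over all genes in each sample (relative coverage), 11 members were higher and 5 lower (23.9 and 10.9%, against 15.7 and 19.8% of all genes). With equal numbers of peaks drawn from the lists, 11 of 44 were higher and 2 lower (25.0 and 4.55%, against 19.9 and 9.45% of all genes). Between neonatal and adult CMCs, 4 of 46 were higher and 11 lower in both adult replicates (8.7 and 23.9%), against 16.5% higher and 21.7% lower of all genes and 17.8 and 17.3% of genes of like length, so that the share of lower members was close to that of all genes. By relative coverage 3 were higher and 16 lower (6.52 and 34.8%, against 15.8 and 27.4% of all genes). With equal peak numbers 4 of 44 were higher and 7 lower (9.09 and 15.9%), whereas among all genes more were higher than lower (25.6 and 12.6%). The 11 lower members were Cdc20, Cdk1, Mcm2, Ccnb1, Kif11, Wee1, Bub1b, E2f7, Incenp, Rb1 and Rbl1. The sign of the difference of their means was kept in both settings, though with equal peak numbers the replicates of Ccnb1, Kif11, E2f7, Incenp and Rb1 overlapped. That setting rests on a single draw of peaks, so which genes with few peaks overlap may change with the draw.

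Leaving out single libraries moved these counts, for all genes as for the members. The share of members higher in neonatal than in E14.5 CMCs was 39.1 and 50% without E14.5 replicate 1 and 2 (18 and 23 members) and 58.7 and 45.7% without neonatal replicate 1 and 2 (27 and 21), against 37.5, 37.7, 47.6 and 37.7% of all genes. The members lower numbered 7, 2, 0 and 7, that is 15.2, 4.35, 0 and 15.2%, against 18.6, 19, 11.9 and 21.1% of all genes. Without E14.5 replicate 1 the share higher was thus close to that of all genes.

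Between neonatal and adult CMCs the members lower numbered 22 and 16 without neonatal replicate 1 and 2 and 15 and 21 without adult replicate 1 and 2. These are 47.8, 34.8, 32.6 and 45.7% of the members, against 40.4, 31.0, 28.3 and 37.9% of all genes. The members higher numbered 6, 10, 12 and 7 (13.0, 21.7, 26.1 and 15.2%), against 22.5, 29.5, 37.1 and 24.8% of all genes. More members were lower than higher in each of these settings, which was also so for all genes except without adult replicate 1.

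Between E14.5 and adult CMCs, 8 members were higher and 3 lower in both adult replicates, that is 17.4 and 6.52%, against 29.1% and 18.1% of all genes. By relative coverage 5 were higher and 9 lower (19.6 and 30.1% of all genes), and with equal peak numbers 11 and 2 (33.5 and 13.1% of all genes). Between adult and TAC CMCs, 1 member was higher and 9 were lower in both TAC replicates (2.17 and 19.6%), against 6.06% higher and 24.0% lower of all genes. By relative coverage 6 were higher and 5 lower in TAC CMCs, against 15.3 and 12.2% of all genes, so that the balance of this comparison depended on the scaling. Without TAC replicate 2, which stood apart, 8 members were higher and 13 lower than both adult replicates (17.4 and 28.3%), against 20 and 31.4% of all genes. The counts were 6 and 18 without TAC replicate 1 (17.8 and 44.4% of all genes), 2 and 22 without adult replicate 1 (10.9 and 49.3% of all genes), and 8 and 17 without adult replicate 2 (17.2 and 34.7% of all genes). Between E14.5 and adult CMCs the counts higher and lower were 13 and 14 without E14.5 replicate 1 (37.9 and 29.3% of all genes), 16 and 6 without E14.5 replicate 2 (35.7 and 27.9%), 19 and 3 without adult replicate 1 (47.8 and 22.9%) and 12 and 8 without adult replicate 2 (37.1 and 30.2%).

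The cyclins and kinases of G1 had a mean coverage over their 8 genes of 10.4 and 6.2% at E14.5, 10.01 and 10.7% at the neonatal point, 9.07 and 12.9% in adults, and 8.48 and 4.86% after TAC. Cdk4, which phosphorylates the retinoblastoma proteins together with a D-type cyclin, had the highest mean over the 8 samples of all members, 25.0%. Its coverage was 31.7 and 13.3% at E14.5, 37.9 and 20.6% at the neonatal point, 17 and 47.1% in adults, and 25.4 and 6.93% after TAC, and the replicates of all points overlapped. Cdk6, its paralog, spans 187 kb at chr5:3343893-3531008 and was covered in all samples, with 9.14 and 6.28% at E14.5, 12.6 and 12.8% at the neonatal point, 13.7 and 13.7% in adults, and 10.5 and 5.72% after TAC. Both adult replicates of Cdk6 were above both neonatal replicates by 0.991 percentage points on average (limma log2 change 0.10 ± 0.383 SE, adjusted p = 0.981), and they overlapped by relative coverage. Both TAC replicates were below both adult replicates (log2 change -0.74 ± 0.383 SE, limma adjusted p = 0.753), and here too the replicates overlapped by relative coverage.

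The D-type cyclins Ccnd1, Ccnd2 and Ccnd3, which bind Cdk4 and Cdk6, had peaks in all 8 samples, with means over the samples of 12.1, 10.2 and 9.98%. In Ccnd2 both TAC replicates, 9.29 and 6.11%, were below both adult replicates, 10.5 and 12.7% (limma adjusted p = 0.753), but the replicates overlapped by relative coverage and with equal peak numbers. Cdk2, the partner of the E-type cyclins, had a peak in 5 samples and at most 8.87% coverage.

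The cyclins, kinase and switch enzymes of S phase to mitosis included Cdk1 and its regulators. The mean over 8 genes was 2.81 and 3.4% at E14.5, 8.45 and 6.12% at the neonatal point, 0.353 and 4.91% in adults, and 5.75 and 0.637% after TAC. The neonatal mean was above the E14.5 and the adult mean, also by relative coverage and with equal peak numbers, and 3 of the 7 members tested were lower in both adult than in both neonatal replicates while 0 were higher (42.9 and 0%, against 21.7 and 16.5% of all genes).

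Cdk1, the kinase that drives mitosis, spans 17.8 kb at chr10:69335146-69352912. Its coverage was 13.6 and 9.24% at E14.5, 41.1 and 22.1% at the neonatal point, 2.82 and 20.5% in adults, and 10.2 and 0% after TAC. Neonatal coverage was 20.2 percentage points above E14.5 (log2 change 1.35 ± 1.34 SE, limma adjusted p = 0.888) and the adult mean differed from the neonatal mean by -19.96 points (log2 change -1.78 ± 1.34 SE, limma adjusted p = 0.717). The adult replicates lay far apart, and adult replicate 2 came close to neonatal replicate 2. With equal peak numbers the E14.5 and neonatal replicates of Cdk1 overlapped, whereas the neonatal and adult replicates stayed apart.

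Ccnb1, the B-type cyclin that activates Cdk1, was covered to 0 and 6.47% at E14.5, 11.8 and 6.47% at the neonatal point, 0 and 0% in adults, and 8.13 and 0% after TAC. It was thus listed without a peak in both adult samples and with a peak in both neonatal samples (limma adjusted p = 0.513). Wee1, the kinase that holds Cdk1 inactive, was covered to 0 and 6.02%, 7.66 and 6.73%, 0 and 2.36%, and 2.36 and 2.36% at the same points, and its neonatal replicates were above all other samples. Of the Cdc25 phosphatases, which remove the mark that Wee1 sets, Cdc25b had no peak at E14.5 and 4.33 and 2.95% coverage in neonatal CMCs. Cdc25a had 2.74 to 3.47% in the E14.5 and neonatal samples, 0 and 2.74% in adults, and 14.8 and 2.74% after TAC, while Cdc25c and the cyclin Ccnb2 did not go above 3.61%.

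The kinase inhibitors and the retinoblastoma family had a group mean of 0.827 and 5.66% at E14.5, 7.14 and 14.4% at the neonatal point, 12.1 and 6.08% in adults, and 5.26 and 4.4% after TAC. Cdkn1a, an inhibitor of cyclin-dependent kinases, was covered to 1.64 and 1.62% at E14.5, 14 and 16.3% at the neonatal point, 5.14 and 15.6% in adults, and 17 and 7.44% after TAC. Its E14.5 samples were below all other samples, with a log2 change of 2.62 ± 0.612 SE to neonatal (unadjusted p = 0.00608, adjusted p = 0.387 in limma) and of 1.94 ± 0.612 SE to adult CMCs (unadjusted p = 0.0211, adjusted p = 0.229 in limma). These differences were the same in direction under both other scalings, and the replicates stayed apart. The neonatal replicates of Cdkn1a shared no covered base, however, whereas the E14.5 replicates shared 158 bp and the adult replicates 501 bp.

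Cdkn2d, an inhibitor of Cdk4 and Cdk6, spans only 2.75 kb and had a mean of 24.8%, with 0 and 18.2% at E14.5, 18.2 and 51.3% at the neonatal point, 56.1 and 18.2% in adults, and 18.2 and 18.2% after TAC. A value of 18.2% is a single peak of the median width. Of the pocket proteins, which bind E2F factors, Rb1 was covered to 2.02 and 3.15%, 5.05 and 6.41%, 2.79 and 3.67%, and 1.59 and 4.17% at E14.5, neonatal, adult and TAC, and its neonatal replicates were above the other 6 samples. Rbl1 was lower in adult (0.854 and 0.854%) than in neonatal CMCs (1.95 and 4.5%) and had no peak in TAC CMCs, and Rbl2 had 1.86 and 4.22% in adults, and 0 and 0.931% after TAC. Cdkn1b and Cdkn2c had peaks in 4 and 2 samples, with at most 9.78 and 8.52% coverage.

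E2F factors had the highest mean among the role groups in 6 of the 8 samples, the exceptions being E14.5 replicate 1 and adult replicate 1. Their mean was 6.6 and 10.5% at E14.5, 11 and 14.8% at the neonatal point, 8.95 and 13.9% in adults, and 12 and 5.67% after TAC. E2f8, which represses E2F targets, was covered to 10.9 and 6.61% at E14.5, 33.3 and 27% at the neonatal point, 12.2 and 31.4% in adults, and 23.8 and 5.14% after TAC. Both neonatal replicates were above both E14.5 replicates by 21.4 percentage points, the largest such difference among the members (log2 change 1.70 ± 0.788 SE, limma adjusted p = 0.816), and they stayed apart under both other scalings. Both adult replicates were also above E14.5 (log2 change 1.12 ± 0.788 SE, limma adjusted p = 0.504) but overlapped with them by relative coverage.

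E2f3, an activator of S phase genes, spans 79.5 kb and was covered to 13.4 and 17.2% at E14.5, 18.4 and 29.1% at the neonatal point, 19.5 and 19.4% in adults, and 9.34 and 9.71% after TAC. Its coverage in the TAC replicates was below that in all other samples, with a difference of -9.94 percentage points to the adult mean (log2 change -0.96 ± 0.333 SE, unadjusted p = 0.0302, limma adjusted p = 0.625), though TAC and adult replicates overlapped by relative coverage. E2f2, also an activator, was covered evenly, from 13.9 to 24.2% in the 8 samples. E2f7, a repressor of the same kind as E2f8, had 7.53 and 6.95% at the neonatal point, 0 and 5.39% in adults, and 1.19 and 1.19% after TAC, where both adult values were below both neonatal values (log2 change -1.70 ± 0.921 SE, limma adjusted p = 0.643). E2f6 was higher in neonatal (5.29 and 9.6%) than in E14.5 CMCs (3.17 and 0%), and E2f1, E2f4 and E2f5 had peaks in 4, 6 and 2 samples without a point at which both replicates stood apart from the neighbouring point.

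Of the transcription factors that switch on mitotic genes, Mybl2 was higher in adult (2.76 and 4.18%) than in neonatal CMCs (0 and 1.67%), with 1.67 and 6.02% at E14.5 and 0 and 3.33% in TAC CMCs (adult against neonatal, limma adjusted p = 0.698). Foxm1 had 3.89 to 16.4% in 7 samples and no peak in TAC replicate 2, and its replicates overlapped in all 4 comparisons.

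The helicase that opens DNA at replication origins is built of 6 MCM proteins, and 5 of their genes could be tested. The group mean was 2.87 and 3.02% at E14.5, 6.1 and 3.85% at the neonatal point, 2.71 and 8.09% in adults, and 1.74 and 3.83% after TAC, and the order of the points differed between its members. Mcm2 was covered to 4.13 and 12.9% at E14.5, 12.4 and 14.4% at the neonatal point, 0 and 3.27% in adults, and 0 and 4.17% after TAC. Its adult mean differed by -11.8 percentage points from the neonatal mean (unadjusted p = 0.0452, limma adjusted p = 0.484) and by -6.87 points from the E14.5 mean (limma adjusted p = 0.407). Mcm7 had the opposite order of adult and neonatal means, with 6.86 and 0% at E14.5, 20.8 and 0% at the neonatal point, 10.7 and 40.6% in adults, and 6.86 and 9.27% after TAC. It was higher in both adult than in both E14.5 samples by 22.2 points (limma adjusted p = 0.438) and lower in both TAC than in both adult samples, with a difference of -17.6 points (log2 change -1.30 ± 1.72 SE, limma adjusted p = 0.825). The adult mean rested on adult replicate 2. Mcm3, Mcm5 and Mcm6 did not go above 7.78%.

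Mitosis and cytokinesis proteins had a group mean over 12 genes of 1.87 and 7.47% at E14.5, 6.68 and 10.8% at the neonatal point, 7.2 and 3.43% in adults, and 4.57 and 2.87% after TAC. In this group 5 of the 11 members tested were higher in both neonatal than in both E14.5 replicates, that is 45.5%, against 25.9% of all genes. With equal peak numbers only the replicates of Aurkb stayed apart. Those of Kif11, Mki67, Top2a and Aurka overlapped, and the difference of Aurka changed sign (-1.293 percentage points). By relative coverage the replicates of Aurka alone overlapped. In both adult replicates 4 were lower and 2 higher than in both neonatal replicates (36.4 and 18.2%, against 21.7 and 16.5% of all genes).

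Cdc20, which activates the ubiquitin ligase that ends mitosis, had the largest difference between neonatal and adult CMCs. It spans 4.44 kb at chr4:118432901-118437343 and was covered to 0 and 50.3% at E14.5, 23.6 and 56.5% at the neonatal point, 22.3 and 0% in adults, and 18.6 and 14.1% after TAC. The adult mean differed from the neonatal mean by -28.9 percentage points (limma adjusted p = 0.717), but adult replicate 1 and neonatal replicate 1 differed by little and the E14.5 replicates spanned nearly the whole range.

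Kif11, the motor that pushes the spindle poles apart, had replicates that lay close together. Its coverage was 2.2 and 2.2% at E14.5, 11.3 and 11.7% at the neonatal point, 6.31 and 4.13% in adults, and 0 and 1.1% after TAC. All 4 points were apart from each other, with the order neonatal, adult, E14.5 and TAC. The log2 change was 1.96 ± 0.502 SE from E14.5 to neonatal (unadjusted p = 0.00892, limma adjusted p = 0.462) and -1.03 ± 0.502 SE from neonatal to adult (limma adjusted p = 0.597). From adult to TAC CMCs the difference in coverage was -4.67 percentage points (unadjusted p = 0.00694, limma adjusted p = 0.35). With equal peak numbers the E14.5 and neonatal replicates overlapped, as did the neonatal and adult replicates, and the direction was kept.

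Aurkb, Incenp and Birc5 encode subunits of the chromosomal passenger complex, which corrects the attachment of chromosomes to the spindle. Aurkb had no peak in either E14.5 sample, 17.3 and 12.9% coverage in neonatal, 16.6 and 8.31% in adults, and 10.4 and 0% after TAC. Both postnatal points of untreated mice were thus above E14.5 (unadjusted p = 0.0142 and adjusted p = 0.546 for neonatal, unadjusted p = 0.0197 and adjusted p = 0.226 for adult, limma). Incenp had the opposite pattern in adult CMCs, with 1.84 and 3.68% at E14.5, 4.18 and 1.84% at the neonatal point, no peak in either adult sample, and 2.36 and 0% in TAC CMCs (neonatal to adult, unadjusted p = 0.0337 and adjusted p = 0.441 in limma). Birc5 had a peak of the median width in 4 samples, 1 at each point.

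Aurka, the kinase of the spindle poles, had the largest difference among the 4 members that were higher in both adult than in both neonatal replicates, 2.93 percentage points, with 3.48 and 3.48% at E14.5, 4.38 and 5.14% at the neonatal point, 8.41 and 6.97% in adults, and 5 and 10.4% after TAC (log2 change 0.59 ± 0.428 SE, limma adjusted p = 0.717). With equal peak numbers the adult and neonatal replicates of Aurka overlapped. Anln, a scaffold of the cleavage furrow, had 2.45 and 6.84% at E14.5, 4.7 and 4.12% at the neonatal point, 5.04 and 6.94% in adults, and 0 and 1.78% after TAC. Its adult values were above the neonatal ones by 1.58 points (log2 change 0.36 ± 0.679 SE, limma adjusted p = 0.905), and its TAC values were below the adult ones, with a difference of -5.1 points (unadjusted p = 0.0252, limma adjusted p = 0.603).

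Bub1b, a protein of the spindle checkpoint, had 7.07 and 6.17% at E14.5, 3.57 and 12.5% at the neonatal point, 2.31 and 2.95% in adults, and 3.27 and 5.13% after TAC. It was lower in adult than in neonatal CMCs (log2 change -1.12 ± 0.598 SE, limma adjusted p = 0.635) and was the only member higher in both TAC than in both adult replicates (log2 change 0.50 ± 0.598 SE, limma adjusted p = 0.799). Plk1, a kinase that promotes entry into mitosis, had 4.79 and 6.01% in adult and no peak in either TAC sample (limma adjusted p = 0.749). Mki67 and Top2a, which mark and serve the chromosomes of dividing cells, were higher in neonatal (7.99 and 5.65%, and 3.21 and 5.73%) than in E14.5 CMCs (3.77 and 0%, and 1.6 and 1.6%). The limma adjusted p was 0.886 for each, and with equal peak numbers the replicates of both genes overlapped, with the direction kept.

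**Figure D3:**
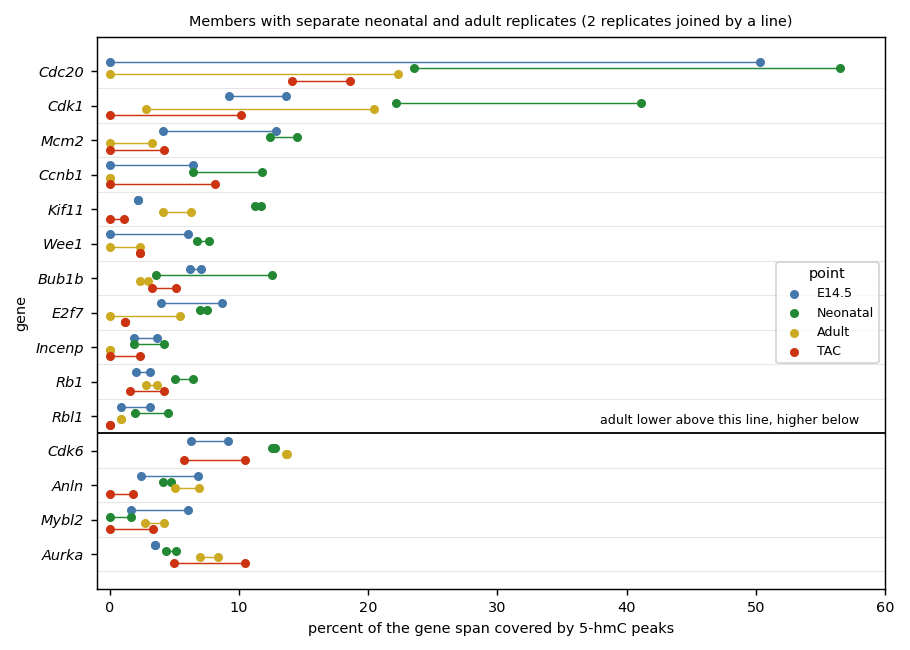
Percent of the gene span covered (x axis) in the 15 members whose neonatal and adult replicates do not overlap, 11 lower in adult CMCs (above the black line) and 4 higher (below it). Points are replicates, joined by a line per point and coloured by point; the 11 lower members include Cdc20, Cdk1, Mcm2, Ccnb1 and Kif11, and the lines of Cdc20 and Cdk1 are wide.

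Coverage of a gene does not tell whether replicates share their peaks, so the base pairs covered in both replicates of a point (common regions) were also computed. No minimum width was set for a common region. A common region was found in 17 members at E14.5, 24 at the neonatal point, 19 in adults and 8 after TAC, that is in 33.3, 47.1, 37.3 and 15.7% of the members, against 41.7, 47.7, 43.9 and 27.4% of genes of like length. Common regions took up 0.999, 3.61, 2.2 and 0.193% of the members' spans on average, and 2.21, 3.45, 3.34 and 0.804% of those of genes of like length. Both the share and the mean of the members were thus close to those of genes of like length at the neonatal point. At the other points they were below them. The neonatal mean of the members included 23.57% in Cdc20, a short gene with the highest value. The TAC regions are those shared with TAC replicate 2, whose peaks lay beside those of the other lists.

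In 6 members a common region was present in neonatal CMCs and at no other point: Ccnb1, Wee1, E2f6, Top2a, Aurka and Cdc20. In another 5 members, Ccnd1, Rbl1, E2f7, Mcm2 and Bub1b, common regions were present at E14.5 and in neonatal CMCs but not in adult or TAC CMCs. In 4 members they were present in adult CMCs alone: Cdk4, E2f4, Mcm7 and Plk1. Common regions at all 4 points were found in Ccnd3, Cdk6, Rb1, E2f2 and E2f3, which span 23.8 kb or more. After TAC those of Ccnd3 were only 1 and 102 bp wide and those of Cdk6 13 to 225 bp. That of Rb1 was 484 bp wide, and those of E2f2 and E2f3 held 515 and 679 bp in all. Common regions were present at E14.5 alone in Foxm1 and Incenp, and at E14.5 and in adult CMCs in Cdkn1a and Mybl2. Aurkb and Kif11 had them in neonatal and adult CMCs, Cdk1, E2f8 and Anln also at E14.5, and Ccnd2, Cdkn2d and Mki67 also after TAC. In TAC CMCs they held 507 bp in Ccnd2, 96 bp in Cdkn2d and 117 bp in Mki67. The share of all genes with each pattern was not computed, so these counts are not read as a trait of the members. In Aurka the adult replicates had higher coverage than the neonatal ones but shared no base of it, whereas the neonatal replicates shared a region of 630 bp in an intron.

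**Figure D4:**
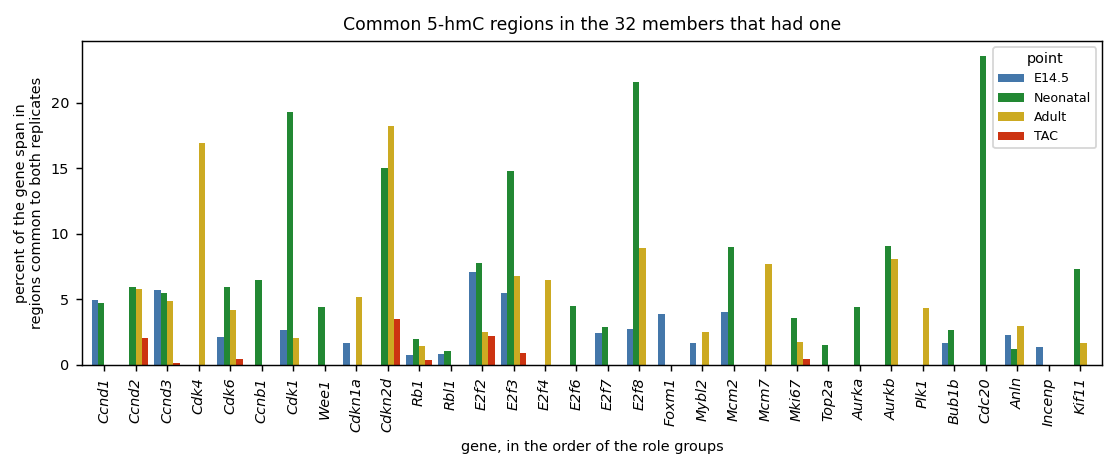
Percent of the gene span (y axis) in regions covered by peaks of both replicates of a point, for the 32 members with such a region at any point (x axis); bar colours are the 4 points. The tallest bars are neonatal, in Cdc20 (23.6%), E2f8 (21.6%) and Cdk1 (19.3%), and TAC bars are present in 8 genes only.

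Most of these regions lay in introns. Of 75 common regions of the members in neonatal CMCs, 62 had their centre in an intron, 10 in a coding exon, 3 in a noncoding part of an exon and 0 within 1 kb of a transcription start. In adult CMCs 48 of 55 were intronic and 1 lay within 1 kb of a start. The intron class of these regions also took centres just beyond a gene, as at the ends of Ccnd3 and Cdkn1a at E14.5. Introns made up 84% of the members' spans, coding exons 6.36% and the stretch within 1 kb of a start 4.42%. Among all peaks whose centre lay in a member, 6.48 to 13.6% per sample were centred in coding exons and 0.84 to 2.16% within 1 kb of a start.

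A peak within 1 kb of the start was found in 9 and 7 of the 51 members at E14.5, 13 and 13 at the neonatal point, 7 and 10 in adults, and 6 and 4 after TAC. In percent these are 17.6 and 13.7, 25.5 and 25.5, 13.7 and 19.6, and 11.8 and 7.84, against 19.4 and 17.9, 20.1 and 22.1, 18.1 and 20.7, and 18.1 and 15.5 of all protein-coding genes. The neonatal samples were thus the only ones in which the members' share was above that of all genes. Among genes of like length the share was 21.2 and 19.7, 21.8 and 24.1, 19.8 and 22.5, and 19.5 and 16.9% at the same points. In neonatal replicate 2 the members' share was close to this. In the narrower windows from 250 bases before to 50 bases after the start that RefSeq gives for 38 of the members (44 windows), a peak was found in 0 windows of either E14.5 sample, 1 window of each neonatal sample, 1 and 3 of the adult samples, and 0 and 2 of the TAC samples, while 5.04 to 6.75% of 20418 windows of all protein-coding genes held a peak. In adult replicate 2 the share was 6.82% of the members' windows and 6.66% of all windows, and in the other samples it was 4.55% or less of the members' windows. The windows with a peak in more than 1 sample were those of E2f6, in both adult samples, and of Cdc25b, in neonatal replicate 2 and adult replicate 2. The members' spans held 1.66 CpG per 100 bp on average, from 0.562 to 3.33, against 1.4 in genes of like length.

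**Figure D5:**
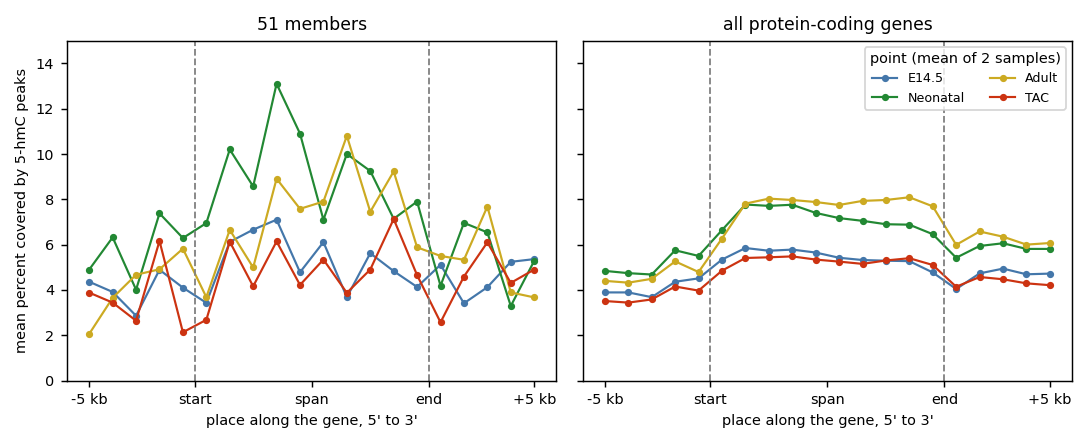
Mean percent of each bin covered by 5-hmC peaks (y axis) from 5 kb before the gene start, through 10 equal parts of the span, to 5 kb after its end (x axis), for the members (left) and all protein-coding genes (right); lines are means of 2 samples per point. In the members the neonatal line is at 6.95% in the part next to the start and reaches 13.1% in the fourth part, whereas over all genes the adult line is the highest along most of the span.

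The sequences of 8 of the common neonatal regions are shown, as examples of sequence that both neonatal samples hold within a peak. The genes and regions were chosen after the values were seen. The region was the widest of its gene for Cdc20, Ccnb1, Kif11 and E2f8. For Cdk1 and Mcm2 it was the one with a peak in the fewest lists, so that the samples named for them follow in part from that choice. The wider region of Cdk1, 1527 bp, had a peak in 6 lists, and a region of Mcm2 of 631 bp had one in 5. Most of the neonatal coverage of Cdk1, Mcm2, E2f8, Ccnd3 and Cdk6 lies outside the regions shown. For each region the 200 intronic bases with the fewest repeat-masked bases and then the most CpG sites are printed, from the plus strand of GRCm38 (mm10), with each CpG, the site at which 5-hmC mostly occurs, in capitals. The region chosen in Cdk1, 1099 bp, met a peak of both neonatal samples, E14.5 replicate 2 and adult replicate 2. The intron window of Cdk1 at chr10:69348078-69348277 had a peak in both neonatal samples and in adult replicate 2, and holds 7 CpG sites. That of Cdc20 at chr4:118435088-118435287 lay within peaks of both neonatal samples, E14.5 replicate 2, adult replicate 1 and TAC replicate 1. That of Ccnb1 at chr13:100784427-100784626 had a peak in both neonatal samples, E14.5 replicate 2 and TAC replicate 1 and in neither adult sample.
Cdk1: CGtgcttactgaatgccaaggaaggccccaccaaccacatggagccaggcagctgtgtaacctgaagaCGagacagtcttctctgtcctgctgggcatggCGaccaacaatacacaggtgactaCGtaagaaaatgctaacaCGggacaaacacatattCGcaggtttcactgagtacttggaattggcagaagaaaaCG
Cdc20: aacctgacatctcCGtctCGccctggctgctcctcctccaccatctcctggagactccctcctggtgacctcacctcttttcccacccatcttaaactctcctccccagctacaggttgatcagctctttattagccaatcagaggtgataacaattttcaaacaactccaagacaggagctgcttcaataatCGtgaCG
Ccnb1: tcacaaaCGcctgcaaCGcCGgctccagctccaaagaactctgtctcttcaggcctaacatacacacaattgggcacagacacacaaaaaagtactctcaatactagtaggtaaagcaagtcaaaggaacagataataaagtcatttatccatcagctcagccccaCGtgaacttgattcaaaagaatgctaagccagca

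The next 3 belong to Kif11, Mcm2 and E2f8. The window in Kif11 at chr19:37381122-37381321 is part of the widest common region of the 3 genes, 2850 bp, and lay within peaks of both neonatal and both adult samples and of TAC replicate 2, but of no E14.5 sample. The window in Mcm2 at chr6:88897517-88897716 had a peak in E14.5 replicate 2 and both neonatal samples and holds 1 CpG site, against 8 in each of those of Kif11 and E2f8. The window in E2f8 at chr7:48874754-48874953 had a peak in both neonatal and both adult samples and in no E14.5 or TAC sample.
Kif11: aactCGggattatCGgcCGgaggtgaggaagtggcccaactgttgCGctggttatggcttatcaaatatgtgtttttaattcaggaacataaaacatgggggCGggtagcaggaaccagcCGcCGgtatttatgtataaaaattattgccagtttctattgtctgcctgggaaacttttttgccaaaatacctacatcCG
Mcm2: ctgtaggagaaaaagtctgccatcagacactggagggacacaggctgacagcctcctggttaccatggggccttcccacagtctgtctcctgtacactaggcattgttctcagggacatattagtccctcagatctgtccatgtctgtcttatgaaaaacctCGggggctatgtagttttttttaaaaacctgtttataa
E2f8: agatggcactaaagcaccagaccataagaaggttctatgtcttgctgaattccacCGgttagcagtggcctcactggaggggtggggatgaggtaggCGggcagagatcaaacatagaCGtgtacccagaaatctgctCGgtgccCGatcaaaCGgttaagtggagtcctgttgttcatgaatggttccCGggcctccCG

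For contrast, 2 windows are from regions of Ccnd3 and Cdk6 that met a peak of all 8 lists, taken where the most samples covered the whole window. The window in Ccnd3 at chr17:47527144-47527343 lay within peaks of 7 samples, all but TAC replicate 2, and that in Cdk6 at chr5:3375706-3375905 within peaks of 6 samples, all but E14.5 replicate 2 and TAC replicate 2. They hold 6 and 4 CpG sites.
Ccnd3: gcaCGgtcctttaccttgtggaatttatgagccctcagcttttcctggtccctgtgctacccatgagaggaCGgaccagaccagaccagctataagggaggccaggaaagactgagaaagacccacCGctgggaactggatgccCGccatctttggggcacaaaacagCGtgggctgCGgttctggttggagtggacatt
Cdk6: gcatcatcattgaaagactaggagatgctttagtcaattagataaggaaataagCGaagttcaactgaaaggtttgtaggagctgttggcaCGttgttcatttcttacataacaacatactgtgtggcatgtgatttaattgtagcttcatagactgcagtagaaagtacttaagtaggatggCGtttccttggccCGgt

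A further list of 95 cell cycle genes that are not members was examined in the same way, and 79 of them could be tested. With limma, an unadjusted p under 0.05 was found in 10, 10, 16 and 3 of the 79 genes, against 6.89, 9.89, 16.7 and 7.02% of all genes. The order is E14.5 to neonatal, neonatal to adult, E14.5 to adult, and adult to TAC. An adjusted p under 0.05 was reached by 0.523, 1.40, 1.75 and 0.860% of all genes. Of the 79, 1 was called between E14.5 and neonatal CMCs, 1 between neonatal and adult CMCs, and 0 in the other 2 comparisons. Both calls were Cks2, a small subunit of the cyclin-dependent kinase complexes, which spans 5.43 kb at chr13:51645232-51650662 and was covered to 9.22% in both neonatal samples and had no peak in the other 6 samples (adjusted p = 0.0162 for E14.5 to neonatal and 0.00915 for neonatal to adult, limma). A value of 9.22% is a single peak of the median width in each neonatal sample, and these peaks of Cks2 shared 0 bp and lay 243 bp apart. With a replicate block the adjusted p of Cks2 was 0.0695 for E14.5 to neonatal and 0.0393 for neonatal to adult (limma). Without adult replicate 1 or 2 neither call of Cks2 was made (limma adjusted p = 0.0568 and 0.0551 for the former and 0.0912 and 0.097 for the latter), and without E14.5 replicate 1 or 2 the former was lost (limma adjusted p = 0.0973 and 0.105). Cks2 could not be tested without either neonatal replicate, with equal peak numbers or with peaks shared with another list, where it had a peak in fewer than 2 samples. Of the 79 genes, 19 were higher and 3 lower in both neonatal than in both E14.5 replicates (24.1 and 3.8%, against 25.9 and 6.60% of all genes). In adult CMCs 13 were higher and 11 lower than at the neonatal point (16.5 and 13.9%, against 16.5 and 21.7%), and 22 were higher and 8 lower than at E14.5 (27.8 and 10.1%, against 29.1 and 18.1%). After TAC 3 were higher and 17 lower than in adults (3.8 and 21.5%, against 6.06 and 24.0%). The mean coverage of this list was 3.22 and 4.39% at the lower and higher E14.5 sample, 4.78 and 5.25% at the neonatal point, 3.85 and 6.68% in adults, and 2.49 and 3.93% after TAC, so that its neonatal samples were not above its adult samples.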

How the data were processed

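Per the labels and the study's methods, the authors aligned hMeDIP and input reads to mm10 with BWA 0.7.4-r385, used Picard to mark duplicates and bamtools to drop poorly mapped reads, and ran HOMER findPeaks in histone mode on each replicate against input. The deposited lists hold coordinates and a score that is 1 for every peak, and no read numbers. In 4 lists (neonatal replicate 2, adult replicate 2, both TAC) the header states scaling of the immunoprecipitate to its control, in the other 4 the reverse. More reads can yield more peaks, and duplicated sequence is under-represented. Input and sh-control samples were not analysed here.

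Gene spans, starts and exons came from curated RefSeq transcripts of GRCm38, the assembly of mm10. Coverage code was checked against bedtools 2.31.1 and the model on simulated data. limma 3.58.1 (R 4.3.3, intensity trend, Benjamini-Hochberg over all genes, threshold 0.05) was fitted to log2(coverage in percent + 1) of all 8 samples, for genes with a peak in at least 2. That scale understates changes of low values. Python 3.11.15, numpy 2.4.6 and samtools 1.23.1 were used. Values are means ± SD of 2.

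Members and lists were chosen with earlier results of these data known. Values are given for members called by limma, for the 8 largest differences each way between neonatal and adult CMCs and the 5 largest in each other comparison among those with separate replicates, for the 3 highest means, and for genes without peaks. Other values were added to account for each role group. Spans of 10 members overlap another protein-coding gene, most in Ccne2 (41.9%) and Rbl2 (22.4%), and a peak there cannot be assigned. The alternatives were another pseudocount, no log, other filters, no trend, a replicate block, leaving out samples, relative coverage, the same number of peaks (a single random draw), peaks shared between lists, peak centres, GENCODE spans, spans without the first kb, wider length bounds and medians.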

Additional observations from a re-analysis of the deposited data

How the results depend on the processing

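The count of members called by limma was 0 in all 4 comparisons under each alternative, except between E14.5 and adult CMCs, where it was 1 in the 6 samples without TAC and 0 to 1 when single replicates were left out. The members lower in both adult than in both neonatal replicates, 11, numbered 7 with equal peak numbers, 7 by peak centres per 10 kb, and 15 to 22 when single replicates were left out, where fewer samples must be apart. Those higher, 4, numbered 2 with peaks shared with another list, 2 by peak centres, and 6 to 12 with single replicates left out. For peak centres and for shared peaks the share of all genes was not computed. The counts in those settings are therefore not read as a result about the members. The ratio to genes of like length in neonatal CMCs (1.175) was 1.23 with equal peak numbers, 1.193 with shared peaks, 1.151 by peak centres, 1.285 without the first kb and 1.319 for medians. In TAC CMCs it was 0.7616 with shared peaks, 0.9649 by peak centres, 0.9063 without the first kb and 0.7632 for medians. The cause of these shifts was not tested, and the neonatal ratio was above 1 in each of these settings. At E14.5 the ratio was also above 1 without the first kb (1.013) and without E14.5 replicate 1 (1.132). It was 0.7045 to 0.9957 in the other settings.

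The labels give the replicates of all points the numbers 1 and 2 without a shared litter or day, and deviations of same-numbered samples correlated with r of 0.0179 to 0.231. The highest r, 0.231, was that of E14.5 with neonatal, and the next was 0.0947. Over the members the rank correlation of E14.5 with neonatal was 0.496 for replicate 1 and 0.69 for replicate 2, against 0.252 between the E14.5 replicates. Over all genes tested these were 0.579, 0.653 and 0.55. With a replicate block 0 members were called in each comparison, and 0, 109, 137 and 81 genes in all, against 84, 225, 281 and 138 without it, in the order E14.5 to neonatal, neonatal to adult, E14.5 to adult, and adult to TAC. Tests on percent without a log called 35, 93, 81 and 57 genes. By relative coverage the median log2 change over all genes was -0.04, -0.15, -0.15 and 0.04 and that of the members 0.29, -0.27, -0.14 and -0.22, against 0.21, -0.06, 0.16 and -0.31, and 0.62, -0.20, 0.23 and -0.68 on the main scale. Depth is unknown, so whether a gene without a peak lacks 5-hmC cannot be told.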
